A study of Mus musculus with 6 samples.

Results

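Expression of 4 genes known from olfactory necklace neurons, Gucy2d, Cnga3, Pde2a and Car2, was compared in noses of newborn wild-type and Atf5 knockout mice. Cnga3, Pde2a and Car2 are also known from other cells. Atf5 encodes a bZIP transcription factor related to ATF4. The genes were chosen by name as rows with exactly 1 gene symbol in the array's annotation, and they are 4 of 19937 genes measured. Each of the 4 had 1 probe set (10555156 for Gucy2d, 10345571 for Cnga3, 10555510 for Pde2a and 10490923 for Car2), so no choice between probe sets was needed. RNA came from the septa and turbinates of the nose on the day of birth, and the sample titles name the tissue as olfactory epithelium. Homozygous Atf5 knockout pups (Atf5-/-) and wild-type pups (Atf5+/+), both of the C57BL6 strain and born to heterozygous parents, gave 3 samples each, every sample a pool of 3 pups hybridised to 1 array. The knockout is not stated to be limited to a cell type, and the part of Atf5 that was removed is not given in the sources used here. All levels are log2 expression values.

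Most olfactory sensory neurons signal through cyclic AMP: an odorant receptor activates the G protein subunit Gnal, the adenylyl cyclase Adcy3 makes cyclic AMP, and a channel containing Cnga2 opens. Necklace neurons, named for the ring of glomeruli they form in the olfactory bulb, are a sparse class that uses cyclic GMP in its place. Their receptor guanylyl cyclase, guanylyl cyclase D (Gucy2d), makes cyclic GMP, the channel subunit Cnga3 responds to it, the cyclic GMP-stimulated phosphodiesterase Pde2a degrades it, and carbonic anhydrase II (Car2) takes part in their response to carbon dioxide. They express MS4A proteins as chemoreceptors and lack most components of the cyclic AMP cascade.

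The sequences just upstream of the cyclases and channel subunits set against each other in these data are shown first, as the 250 bases before the first start site listed in RefSeq (mouse build GRCm38.p6), 5′ to 3′, with CpG dinucleotides in capitals. Gucy2d lies at chr7:98440166-98440415 (plus strand), Adcy3 at chr12:4133147-4133396 (plus strand), Cnga3 at chr1:37218028-37218277 (plus strand) and Cnga2 at chrX:71991599-71991848 (plus strand).
Gucy2d: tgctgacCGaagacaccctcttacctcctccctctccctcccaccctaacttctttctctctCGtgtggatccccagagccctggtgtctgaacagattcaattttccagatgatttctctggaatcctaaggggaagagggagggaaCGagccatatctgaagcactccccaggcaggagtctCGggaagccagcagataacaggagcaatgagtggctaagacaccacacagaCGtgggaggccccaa
Adcy3: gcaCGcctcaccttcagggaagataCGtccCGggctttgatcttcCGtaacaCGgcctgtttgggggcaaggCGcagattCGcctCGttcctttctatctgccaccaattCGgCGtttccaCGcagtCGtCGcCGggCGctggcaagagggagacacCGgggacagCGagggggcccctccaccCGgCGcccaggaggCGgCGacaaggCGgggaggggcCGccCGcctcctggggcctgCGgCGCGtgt
Cnga3: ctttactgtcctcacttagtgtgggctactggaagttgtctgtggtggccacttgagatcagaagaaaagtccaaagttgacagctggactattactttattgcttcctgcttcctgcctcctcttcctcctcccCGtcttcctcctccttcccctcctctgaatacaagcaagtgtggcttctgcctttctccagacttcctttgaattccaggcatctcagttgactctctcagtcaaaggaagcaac
Cnga2: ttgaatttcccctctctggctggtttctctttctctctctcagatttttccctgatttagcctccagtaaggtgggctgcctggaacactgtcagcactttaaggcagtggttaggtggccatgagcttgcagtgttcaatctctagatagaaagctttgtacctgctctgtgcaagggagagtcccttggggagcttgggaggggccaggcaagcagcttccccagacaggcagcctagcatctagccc

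The stretch of Adcy3 held 27 CpG dinucleotides, more than 91.4% of the 32851 upstream stretches in the table. That of Gucy2d held 5, near the median of 6, while Cnga3 held 1 and Cnga2 none (0). A further start site of Adcy3 held 6 and one of Cnga3 held 2. RefSeq promoter windows (250 bases before to 50 after the start) were found for 3 of the 4 necklace genes, in 8 windows, and for 11 of 15 canonical genes, in 19 windows. None of these 27 windows held, on either strand, the O/E site bound by Ebf factors (TCCC and GGGA with any 2 bases between), TGACGTCA (the cyclic AMP response element), TGATGNAA (the core of the C/EBP-ATF response element) or TAATTA (a homeodomain core), letters found in 0.904%, 1.79%, 3.97% and 5.29% of all windows. The 4 motifs do not contain one another. The missing match says only that these letters are not in these windows.

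The 6 arrays had medians from 8.67 to 8.72. Atf5 was at 9.43, 9.44 and 9.50 in the knockout and at 10.54, 10.96 and 10.63 in the wild type (replicates 1, 2 and 3, an order kept below). At the threshold used here (limma, Benjamini-Hochberg adjusted p under 0.05 over all genes) 3.74% of all genes were called, 3.24% as lower and 0.502% as higher in the knockout. All 8 markers of mature olfactory neurons passed as lower, as did 2 of 3 vomeronasal and 2 of 5 enamel markers, while 0 of 10 endothelial, 9 osteoclast, 5 erythroid and 4 sustentacular markers passed in either direction. The vomeronasal markers that fell were Gnao1 and Gng8, while Gnai2 was at 0.05 and Trpc2 had no row of its own. Enamel genes spread widely, with list means of 7.85 to 8.56 in the knockout and 8.81 to 10.41 in the wild type. Skeletal muscle genes were lowest in wild-type replicate 1, at 8.99 against 9.96 to 10.30 on the other arrays. Their part in the results was not tested. Fewer cells of a type and less RNA per cell cannot be told apart in such tissue samples, and the arrays do not show which cells a transcript came from.

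Setting the genotypes against each other asks whether transcripts known from necklace neurons follow those of the cyclic AMP cascade when Atf5 is missing. None of the 4 necklace genes passed the test, against 3.74% of all genes. Blocking on replicate number called 421 genes as higher and 889 as lower, against 100 and 645 without it, and no necklace gene in either fit. At an unadjusted p under 0.05, 1 of the 4, Gucy2d, was counted, against 16.1% of all genes. Of 15 measured genes of the canonical cyclic AMP cascade 11 fell, none rose and 4 did not pass. The median log2 change was -0.09 over the necklace genes, -0.74 over the canonical genes and 0.01 over all genes.

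**Figure D1:**
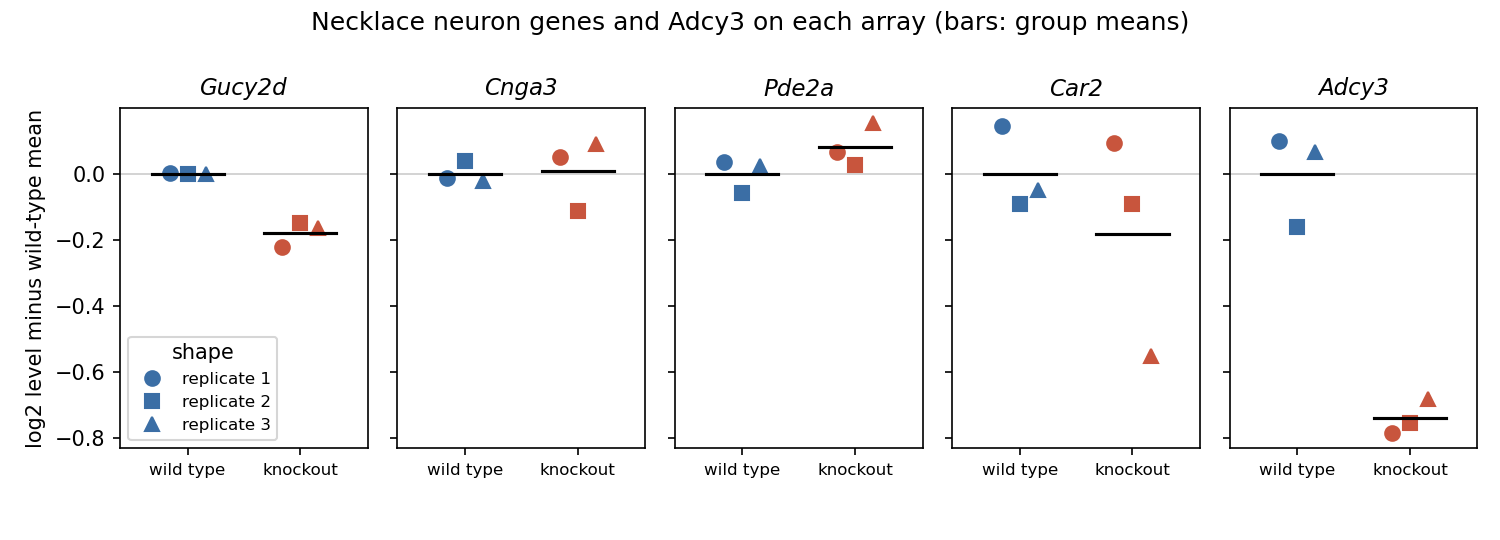
Log2 level of each necklace gene and of Adcy3 on every array, drawn relative to that gene's wild-type mean, with shapes for replicate numbers and bars for group means. Gucy2d and Adcy3 have groups that do not overlap, with changes of -0.18 and -0.74, and Car2 in knockout replicate 3 lies far below the other arrays.

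Gucy2d, the receptor guanylyl cyclase that names these neurons, was at 8.08, 8.15 and 8.13 in the knockout and at 8.30, 8.30 and 8.30 in the wild type. Every knockout array was below every wild-type array, by at least 0.15, a separation in this direction found in 10.3% of all genes. The wild-type arrays spanned 0.0037, much less than the 0.071 of the knockout arrays. The log2 change was -0.18 (SE 0.06), which is 1.13-fold lower in the knockout (95% interval 1.04 to 1.24; 3 arrays in each group). It did not pass the test (limma adjusted p = 0.151, unadjusted p = 0.0115). A block for the replicate number gave an adjusted p of 0.122, and over all alternatives run it lay between 0.122 and 0.37 with the change below 0 in each.

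Adcy3, the cyclase of the cyclic AMP cascade, was at 9.39, 9.42 and 9.49 in the knockout and at 10.27, 10.01 and 10.24 in the wild type. The groups were separated by 0.52. Adcy3 fell by 0.74 on the log2 scale (SE 0.08, limma adjusted p = 0.00146), or 1.67-fold (1.47 to 1.89), and 0.853% of all genes had a lower change. A change as low as that of Gucy2d was less rare, with 8.55% of genes below it. The difference between the cyclases was tested within arrays. Gucy2d minus Adcy3 was -1.31, -1.27 and -1.36 on the knockout arrays, against -1.97, -1.71 and -1.94 on the wild-type arrays. The change of Gucy2d thus lay 0.56 above that of Adcy3 (SE 0.10, 95% interval 0.34 to 0.78). This interval uses the spread of the pair, moderated by that of all genes. The groups did not overlap, as was so for 96.8% of all genes set against Adcy3. Gucy2d was dimmer, with a mean of 8.21 over all arrays, against 9.80 for Adcy3. The 30th percentile of gene means was 8.14. RMA values of dim probe sets can compress a change, and the part of this in the difference was not tested.

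Cnga3, the channel subunit opened by cyclic GMP and known also from cone photoreceptors, was at 7.71, 7.55 and 7.75 in the knockout and at 7.65, 7.70 and 7.64 in the wild type. The knockout arrays lay on both sides of the wild-type arrays. The log2 change was 0.01 (SE 0.07, limma adjusted p = 0.973), with a 95% interval from -0.15 to 0.17. Its probe set was dim: it lay below the 30th percentile of gene means, where RMA values can compress a change.

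The channel subunits of the cyclic AMP cascade moved otherwise. Cnga2 was at 9.04, 9.41 and 8.88 in the knockout and at 11.18, 11.10 and 10.85 in the wild type, and fell by 1.93 (SE 0.14, limma adjusted p = 0.000249). Cnga3 minus Cnga2 was -1.32, -1.86 and -1.13 on the knockout arrays, against -3.53, -3.40 and -3.21 on the wild-type arrays. The change of Cnga3 was 1.94 above that of Cnga2 (SE 0.18, 95% interval 1.54 to 2.34), the largest of the 7 differences taken. Cnga4, a modulatory subunit of the same channel, fell by 1.26 (SE 0.10, limma adjusted p = 0.000499). Cngb1, its beta subunit, was at -0.21 (SE 0.09, limma adjusted p = 0.274), but passed at -0.33 as the mean of its 4 probe sets (adjusted p = 0.0288) and at -0.31 without knockout replicate 3 (adjusted p = 0.0492).

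Pde2a, the phosphodiesterase stimulated by cyclic GMP, was at 9.42, 9.38 and 9.51 in the knockout and at 9.39, 9.30 and 9.38 in the wild type. The groups overlapped in a narrow range. The log2 change was 0.08 (SE 0.06, limma adjusted p = 0.604), with a 95% interval from -0.06 to 0.22. Pde2a is also known from endothelial cells, and 9 of 10 endothelial markers lay above 0 with none past the test. Over all genes 10561 of 19937 lay above 0. The mean level of the endothelial markers was 10.17 to 10.23 in the knockout and 9.97 to 10.13 in the wild type. Pde2a was higher in the knockout only by its group mean, since its arrays overlapped. The part of endothelial cells in the value of Pde2a was not tested.

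The phosphodiesterases of canonical neurons fell. Pde1c, a calmodulin-dependent enzyme of olfactory cilia, was at -0.52 (SE 0.06, limma adjusted p = 0.00214). Pde4a, a cyclic AMP-specific enzyme, was at -0.63 (SE 0.09, limma adjusted p = 0.00641). Pde2a minus Pde1c was -0.10, -0.18 and -0.03 on the knockout arrays, against -0.73, -0.70 and -0.68 on the wild-type arrays. The change of Pde2a was 0.60 above that of Pde1c (95% interval 0.41 to 0.79) and 0.71 above that of Pde4a (0.50 to 0.93).

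Car2, the cytosolic carbonic anhydrase II, was at 10.02, 9.83 and 9.37 in the knockout and at 10.07, 9.83 and 9.88 in the wild type. Only knockout replicate 3 stood apart, below all other arrays. The log2 change was -0.18 (SE 0.15, limma adjusted p = 0.613), with a 95% interval from -0.52 to 0.15, the widest of the 4. Without knockout replicate 3 the change was 0.00014 (SE 0.09), so the value rests on that array. The mean of 4 sustentacular markers was also lowest there, at 11.005, against 11.33 and 11.49 on the other knockout arrays and 11.26 to 11.81 on the wild-type arrays. So were the means of mature neuron (9.40) and vomeronasal (11.05) markers, while that of skeletal muscle markers was highest on this array (10.30). All 4 sustentacular markers had changes below 0, as had 9376 of all 19937 genes. Car2 is known from osteoclasts and red blood cells as well. All 9 osteoclast markers lay above 0, as did 10561 of all 19937 genes. Their list means were 9.81, 9.98 and 10.20 in the knockout and 9.70 to 9.90 in the wild type. The osteoclast mean was thus highest on knockout replicate 3, where Car2 was lowest. Of the 14 erythroid markers 5 had a row of their own, while 6 globin genes stood in rows with several symbols, which were not used. The 5 had means of 7.91 to 8.01 and 7.80 to 8.03. The part of these cells in the level of Car2 was not tested.

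**Figure D2:**
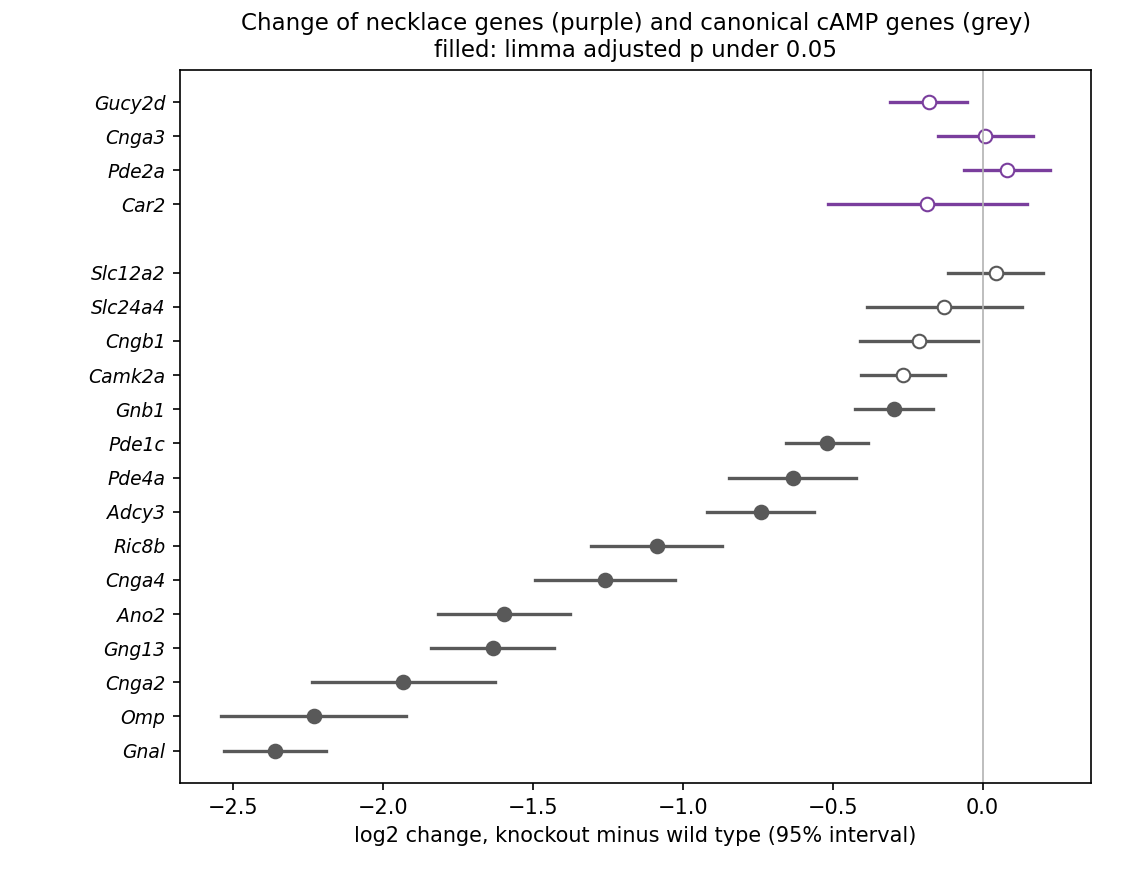
Log2 change (knockout minus wild type) with limma's 95% interval for the 4 necklace genes in purple and 15 canonical genes in grey; filled points passed the test. No necklace gene passed, 11 canonical genes did, and the interval of Car2, from -0.52 to 0.15, is the widest among the necklace genes.

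Set against Adcy3, the other necklace genes lay above it too. Cnga3 minus Adcy3 was -1.67, -1.87 and -1.73 on the knockout arrays, against -2.62, -2.31 and -2.59 on the wild-type arrays, so its change was 0.75 above that of Adcy3 (95% interval 0.50 to 0.99). For Pde2a the difference was 0.04, -0.03 and 0.02 on the knockout arrays, against -0.88, -0.71 and -0.86 on the wild-type arrays, 0.82 higher (0.63 to 1.02). For Car2 it was 0.63, 0.42 and -0.12 on the knockout arrays, against -0.20, -0.18 and -0.36 on the wild-type arrays, 0.56 higher (0.17 to 0.94). In none of the 7 pairs did the groups overlap, but the same holds for most genes: 96.8% of all genes separated in this direction when set against Adcy3, 99.8% against Cnga2, 94.3% against Pde1c and 94.5% against Pde4a. By the 2-sided exact permutation test each pair gave p = 0.1, the smallest that 3 against 3 arrays allow, so this test cannot pass a threshold of 0.05. A limma fit of every gene minus Adcy3 called the 4 necklace genes as higher (adjusted p from 1.22e-08 to 6.45e-05). Every gene shares the deviations of Adcy3, so the fit put 1 SE (0.14) on all 4. It treated this SE as exactly known (an infinite prior df), so these p-values are too small. The SE of the pair was smaller than 0.14 for Gucy2d (0.10), Cnga3 (0.11) and Pde2a (0.09), and larger for Car2 (0.17). The limma fit also called 97.7% of all genes as changing less far down than Adcy3. A place above Adcy3 is thus the common case and not particular to necklace genes.

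**Figure D3:**
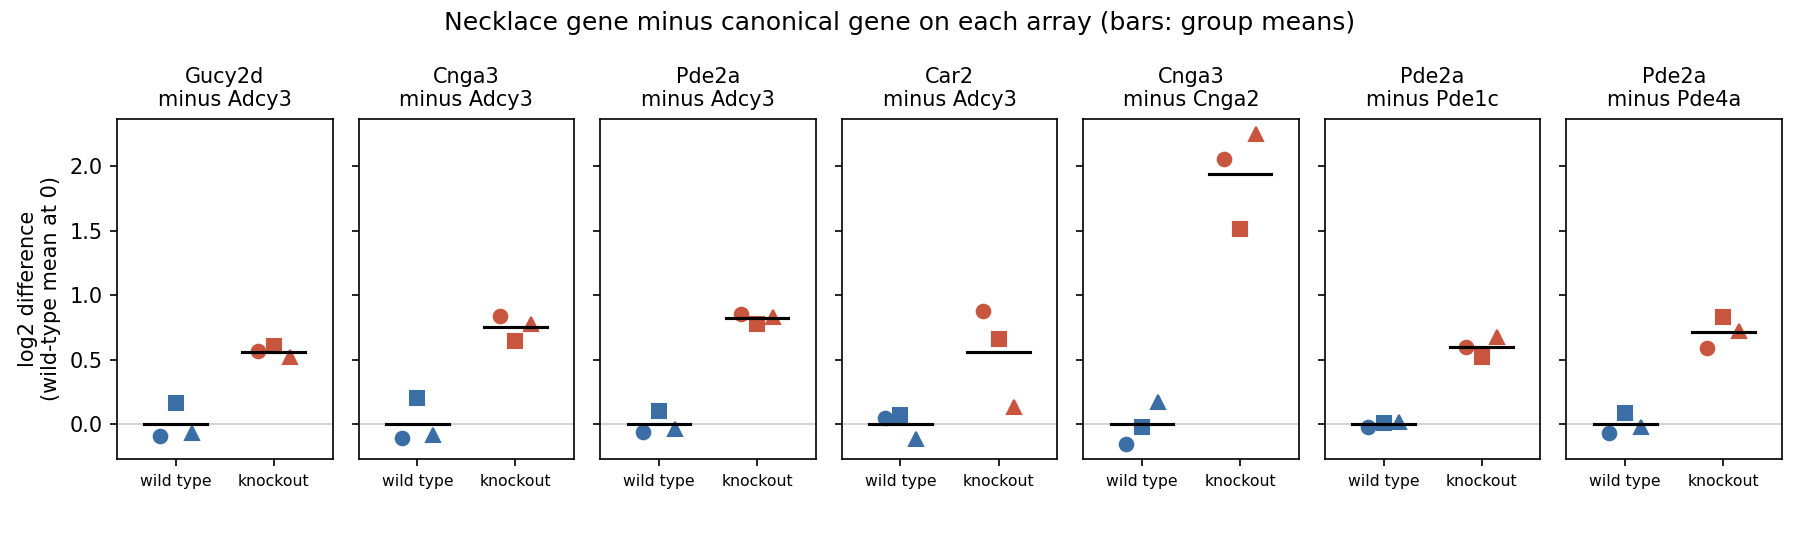
Necklace gene minus a canonical gene on each array, in log2 units with the wild-type mean of each pair at 0; blue is wild type, red is knockout, shapes mark replicate numbers 1, 2 and 3 (circle, square, triangle) and bars are group means. All 7 pairs separate, by 1.94 on average for Cnga3 minus Cnga2 and by 0.56 for Gucy2d and Car2 minus Adcy3.

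The canonical cascade was not uniform. Among its G protein parts, Gnal, the alpha subunit, was at -2.36 (SE 0.08), Gng13, a gamma subunit, at -1.63 (SE 0.09) and Ric8b, which promotes Gnal function, at -1.09 (SE 0.10), all past the test. The beta subunit Gnb1, which many cell types use, fell by 0.30 (SE 0.06, limma adjusted p = 0.0227). Gnb1 no longer passed when any of the other 5 arrays than knockout replicate 3 was left out (adjusted p up to 0.109). The chloride channel Ano2 (-1.59, SE 0.10) and Omp, the marker of mature neurons (-2.23, SE 0.14), passed as well. Camk2a, a calcium-dependent kinase, was at -0.27 (limma adjusted p = 0.0513) and passed with the block for the replicate number (0.0455), after quantile normalization (0.0423) and after median centring (0.0418). The exchanger Slc24a4 (-0.13, SE 0.11) and the chloride importer Slc12a2 (0.04, SE 0.07) did not pass. The groups did not overlap, with the knockout lower, for 12 of the 15 canonical genes and for 1 of the 4 necklace genes, against 10.3% of all genes. The changes of Gucy2d and Car2 lay between those of Slc24a4 and Cngb1, which did not pass.

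The other genes of the necklace and cyclic GMP pathways were described by lists. Of 69 measured genes in 6 lists 2 fell, none rose and 67 did not pass, so 2.90% were lower, against 3.24% of all genes. Their median log2 change was 0.00, against 0.01 over all genes. At an unadjusted p under 0.05, 6 of the 69 were counted, against 16.1% of all genes.

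None of the 16 measured MS4A genes, whose products act as chemoreceptors of necklace neurons, passed, with a median of -0.01. Ms4a6b was at 8.69, 8.62 and 8.24 in the knockout and at 8.22, 8.37 and 8.08 in the wild type, a change of 0.29 (SE 0.12, limma adjusted p = 0.278). Without knockout replicate 3 Ms4a6b passed as higher (0.43, adjusted p = 0.0495). Ms4a10 was at -0.18 (SE 0.08, limma adjusted p = 0.348). Several MS4A genes are also known from immune cells.

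None of the 10 other guanylyl cyclase genes passed. Gucy1a1, an alpha subunit of the soluble, nitric oxide-sensing cyclase, was at 9.05, 8.94 and 9.08 in the knockout and at 8.83, 8.88 and 8.77 in the wild type. Its groups did not overlap, with the knockout higher, as for 10.8% of all genes, and the change was 0.20 (SE 0.07, limma adjusted p = 0.171). The natriuretic peptide receptor Npr2 was at 0.16 (SE 0.06, limma adjusted p = 0.242), with groups that did not overlap. Gucy1b2, the soluble cyclase subunit of another small olfactory neuron class, was at -0.16 (SE 0.08, limma adjusted p = 0.397).

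None of the 10 ligands and regulators of these cyclases passed. Guca2b, the precursor of uroguanylin, a peptide that stimulates necklace neurons, was at 8.91, 8.79 and 8.90 in the knockout and at 8.94, 8.98 and 8.93 in the wild type. The change of Guca2b was -0.09 (SE 0.06, limma adjusted p = 0.551). Guca2a, the guanylin precursor, was at 0.01 (SE 0.10), and the cardiac peptide gene Nppb at -0.08 (SE 0.08). Of the 4 other effectors of cyclic GMP none passed, the lowest p values being those of the kinase Prkg2 (0.14, SE 0.08) and of the cone channel subunit Cngb3 (-0.10, SE 0.07). As the mean of its 2 probe sets Prkg2 was at 0.02.

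Among 14 other phosphodiesterase genes grouped with cyclic GMP, 1 fell. Pde6d was at 11.73, 11.61 and 11.43 in the knockout and at 12.33, 12.24 and 12.05 in the wild type, a change of -0.61 (SE 0.10, limma adjusted p = 0.0087), and it passed without any 1 array (highest adjusted p = 0.0385). Its product is no catalytic enzyme but a prenyl-binding protein that carries lipidated proteins to cilia. The enzymes of the list did not pass, with Pde5a at 0.03 (SE 0.10) and Pde9a at 0.08 (SE 0.09).

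Of 15 other carbonic anhydrase genes 1 fell. Car11, which encodes a related protein without catalytic activity, was at 9.63, 9.49 and 9.62 in the knockout and at 9.95, 9.94 and 9.88 in the wild type. The change was -0.34 (SE 0.06, limma adjusted p = 0.0187). Car11 did not pass when replicate 1 or 2 of either genotype was left out (adjusted p up to 0.0838). Car3, an isoform of muscle and fat, was at 0.35 (SE 0.17, limma adjusted p = 0.366), and passed as higher with the replicate number as a block (adjusted p = 0.038); it was named after its values were seen. The list median was 0.01.

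**Figure D4:**
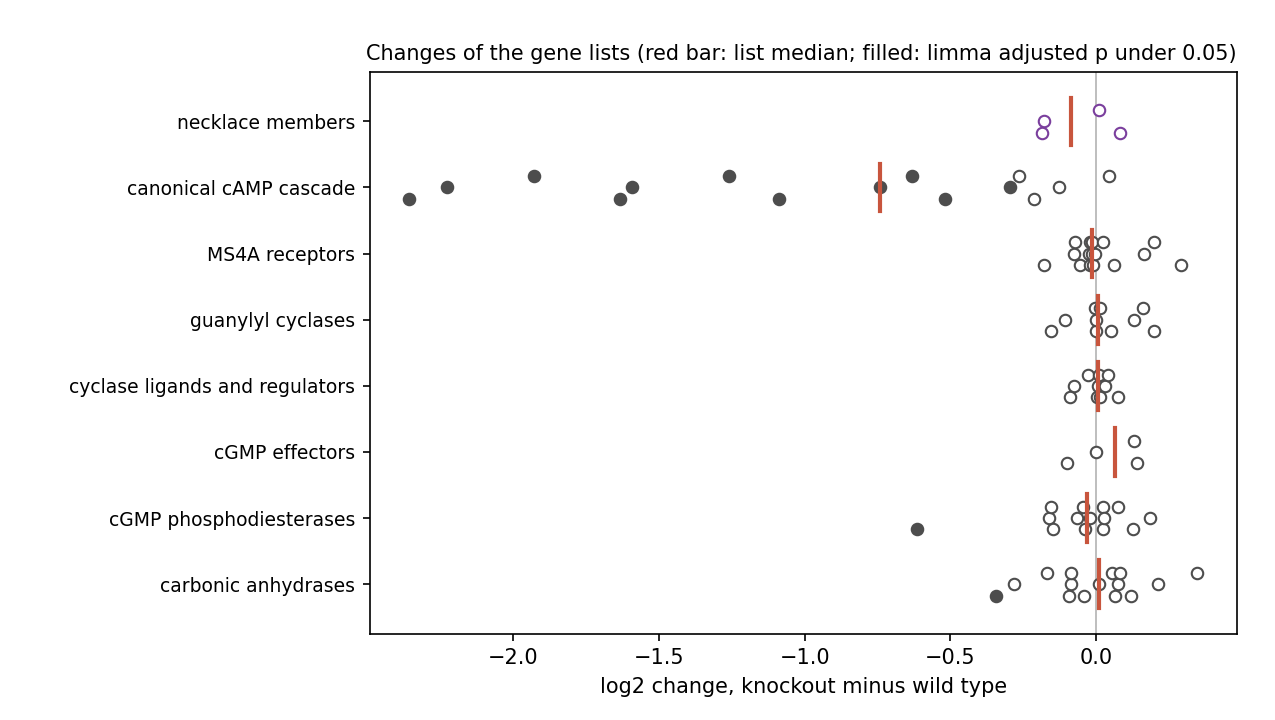
Log2 change of every measured gene in each list, with open points for genes that did not pass, filled points for genes that did and a red bar at the list median. The canonical cascade spreads down to -2.36 with a median of -0.74, while the other lists have medians between -0.09 and 0.06 and hold 2 filled points, Pde6d and Car11.

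The 4 necklace genes did not vary together over the 6 arrays. Pearson r, given as a description over 6 arrays that differ in genotype, was between -0.63 (Gucy2d with Pde2a) and 0.40 (Cnga3 with Pde2a). Gucy2d varied with Adcy3 (r = 0.96), both being lower in every knockout array, while Cnga3 (-0.10), Pde2a (-0.49) and Car2 (0.38) did not follow it as closely.

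Among 17624 other genes, leaving out olfactory receptors and provisional symbols, the patterns most like that of Gucy2d were those of Dcdc2a, a doublecortin-domain gene (r = 0.996), Cmip (0.995) and Cnih2 (0.995). All 3 fell in the knockout, by 1.31, 0.34 and 0.29 on the log2 scale (limma adjusted p = 0.00115, 0.0118 and 0.0372). Being picked by r with Gucy2d on the same arrays, they had to be lower in the knockout. Their falls are thus no separate result. Counted over all other genes measured, olfactory receptors and provisional symbols included, 657 had r above 0.9 with Gucy2d. The same count was 200 with Cnga3, 91 with Pde2a and 334 with Car2. Closest to Cnga3 were Map6d1 (0.994), Clec3b (0.991) and Qrfpr (0.990). Closest to Pde2a were Ctsk, an osteoclast protease (0.990), Erich6b (0.988) and the ribosomal protein gene Rpl24 (0.985). Closest to Car2 were Gatad1 (0.995), Mtg1 (0.993) and Slc39a9 (0.988). None of these 9 genes passed the test between genotypes, though Rpl24 (0.28, limma adjusted p = 0.235) did with the block (adjusted p = 0.0341). They were likewise picked by r with members whose groups overlapped, so the missing calls are no separate result.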

How the data were processed

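Trizol-extracted total RNA was purified on Qiagen columns and labelled with biotin, per the labels' protocols. The submitters' processing notes name RMA, affy and limma, with no version. The authors deposited log2 expression values, taken to be so from their range of 4.50 to 14.67, since the base is not stated. RMA evens out array distributions, so a change shared by most transcripts would not show.

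Of 34760 rows, 21640 had 1 gene symbol in GEO's platform annotation, 1321 several and 11799 none; only the first were used. The probe set with the highest mean was taken for the 954 genes with several, which left 19937 genes. No other samples' columns were present (0). Dim probe sets were kept: at the 30th percentile of gene means 3 of the 4 members would remain, at the median 2.

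Genotypes were compared with limma 3.58.1 in R 4.3.3 (lmFit, then eBayes without a trend; no covariates), 2-sided, adjusted by Benjamini-Hochberg over all genes at 0.05. SE is limma's moderated standard error; mean levels carry 3 arrays per genotype, and this number limits the precision. The p-values measure the spread between these pools.

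Differences between genes used the 6 per-array differences. The planned limma fit of all genes minus Adcy3 gave an infinite prior df, so intervals were taken from each pair's residual variance, moderated with the prior variance of the fit over all genes, doubled for a difference; this, and the pairs with Cnga2, Pde1c and Pde4a, were added after the data were seen. The main limma fit was tested on simulated data, with genes drawn independently and no replicate effect. For the fit of genes minus Adcy3 only the median change was checked there. The alternative fits and the intervals of pairs were not tested in this way.

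The main model held no replicate number. Same-numbered arrays deviated from their group means together, with correlations of 0.295, 0.122 and 0.234, each over 0.1, the rule used for pairing. Differently numbered arrays were not compared in this way and the labels state no pairing, so pairing is not established. The block is given where it changed a call.

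Members and lists were chosen with earlier results of these data known. Named genes were the 4 members, the canonical list, Atf5, in each other list the genes past the threshold or, with none, the 2 with the lowest p, and for each member the 3 genes of highest Pearson r. Gucy1b2, Guca2a, Pde5a, Pde9a and Car3 were named outside this rule after their values were seen. Lists of respiratory, glial, cartilage, microvillous and vomeronasal markers stand in the result tables; of these only vomeronasal genes passed (2 of 3, lower). Promoter sequences are RefSeq's, build GRCm38.p6. Alternatives were the block, quantile normalization, median centring, the filters, the mean of probe sets, a trended and robust prior, the mean of the canonical list in place of Adcy3 and each array left out.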

Additional observations from a re-analysis of the deposited data

How the results depend on the processing

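Adcy3 kept its fall, and Pde2a and Gucy2d their direction and side of the threshold, under every alternative in which they were tested (the median filter removes Gucy2d). Cnga3, which a filter at the 30th percentile removes, changed sign when arrays were left out (-0.032 to 0.070), as did Car2 (-0.32 to 0.00014); neither passed. Leaving out 1 array also moved the sign of Slc12a2 (-0.011 to 0.098) and Nppb (-0.15 to 0.0002). The necklace genes minus Adcy3 stayed above 0 in every setting, from 0.40 (Car2, 1 array left out) to 1.07 (Pde2a, against the mean of the canonical genes). This is not particular to them, since 97.7% of all genes were called above Adcy3 by limma without these alternatives. The canonical genes that fell numbered 10 to 12. Over all genes 745 changed, 1310 with the replicate block, 432 and 286 with filters at the 30th percentile and the median, which test fewer genes, and 410 to 649 with 1 array left out (410 without wild-type replicate 1, 455 without knockout replicate 1); the number higher in the knockout was 100, 421 with the block and 27 to 127 with 1 array left out. With the replicate block 2 carbonic anhydrases passed; with 1 array left out 0 to 1 did, and 0 to 1 MS4A genes. The cause of the other shifts was not tested. Among the genes named from the pathway lists and by likeness, the block changed the calls of Camk2a, Car3 and Rpl24. Median centring shifted the change of every gene by -0.01. Quantile normalization shifted changes by -0.0043 at the median, but by other amounts for single genes. It moved Cnga3 from 0.01 to 0.07, Gucy2d from -0.18 to -0.14, Pde2a from 0.08 to 0.06 and Car2 from -0.18 to -0.22.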
